A study of Mus musculus with 9 samples.

Results

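The genes of the platelet-derived growth factor (PDGF) system and of pericytes described here were 10 of the 18349 genes listed in the deposited counts of mouse iris, chosen by gene symbol. They comprised the 4 PDGF ligands (*Pdgfa*, *Pdgfb*, *Pdgfc* and *Pdgfd*), the 2 PDGF receptors (*Pdgfra* and *Pdgfrb*) and 4 genes expressed in pericytes (*Rgs5*, *Cspg4*, *Abcc9* and *Mcam*). All 10 passed the filter on low counts, which left 15010 genes for testing. Iris RNA was sequenced in 9 libraries that fell into 3 groups of 3, and 3 irises of one genotype were pooled for a library. Sham VEGFR3fl/fl mice carried the floxed allele of VEGFR3 and had PBS applied to the cornea. Injured VEGFR3fl/fl mice had the same genotype and underwent corneal alkali injury at the age of 6 weeks, by exposure to sodium hydroxide (0.5 μL at 1 M) for 60 seconds. Injured VEGFR3iLECko mice received the same injury and carried, beside the floxed allele, tamoxifen-inducible CreERT2 under *Prox1*, so that deletion is limited to cells that express *Prox1*, among them lymphatic endothelium. The labels give tamoxifen at 80 mg/kg on days 13 to 17 after injury for all 3 groups, and irises were collected at 10 weeks.

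Pericytes and vascular smooth muscle cells, together called mural cells, surround the endothelial tube of small vessels. Endothelium releases PDGF-B, which acts on the receptor PDGFRβ of mural cells and is needed for their recruitment and survival. PDGF-A and PDGF-C act mainly through PDGFRα, which marks fibroblasts and glial progenitors, whereas PDGF-D acts through PDGFRβ. PDGFRβ is also present on many fibroblasts, and CD146, the product of *Mcam*, on endothelium.

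Libraries held between 16617187 and 18306359 estimated counts. *Flt4*, which encodes VEGFR3, had 237 to 282 counts in Sham, 277 to 400 in injured VEGFR3fl/fl and 370 to 478 in the libraries labelled injured VEGFR3iLECko, so it was not lower in the latter in whole-iris RNA. The summed level of 4 Y-linked genes was 51.1 to 167 CPM, counts scaled to a common library total, in Sham libraries and 136 and 151 CPM in injured VEGFR3fl/fl replicates 2 and 1. It was 0.80 CPM in injured VEGFR3fl/fl replicate 3 and 0.74 to 1.11 CPM in the injured VEGFR3iLECko libraries. Y-linked RNA therefore differed within the injured VEGFR3fl/fl group as well as between groups. Of 12 fibroblast genes, 6 were highest and 4 lowest of their group in injured VEGFR3fl/fl replicate 1, and their summed level there, 24521 CPM, lay between those of the other 2 libraries. *Dcn*, encoding the matrix proteoglycan decorin, was at 4818 CPM there, against 1027 and 1899 CPM in replicates 2 and 3, whereas the collagen gene *Col3a1* was at 3797 CPM, against 5144 and 7879 CPM (both chosen after their values were seen).

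After injury, RNA of the receptor *Pdgfrb*, of its ligand *Pdgfb* and of all 4 pericyte genes made up a larger share of the libraries. RNA of the ligand *Pdgfa* made up a smaller share. *Mcam* rose 4.09-fold, *Pdgfrb* 3.32-fold, *Abcc9* 3.30-fold, *Cspg4* 2.21-fold, *Pdgfb* 2.17-fold and *Rgs5* 1.81-fold, whereas *Pdgfa* was 2.72-fold lower. Calls required an adjusted p under 0.05 together with a change beyond 1.5-fold in edgeR's quasi-likelihood test. By this rule 6 of the 10 genes were higher, 1 was lower and 3 were not called, where 22.1% of all genes tested were called higher, 17.5% lower and 39.7% in either direction. Their median on the log2 scale was 0.99, and that of all genes tested was 0.01. The 10 genes were chosen with earlier results of these data known, so these values are set side by side only. Levels below are CPM on the scale of trimmed mean of M values (TMM), and whole-iris RNA cannot tell fewer cells of a type from less RNA per cell.

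**Figure D1:**
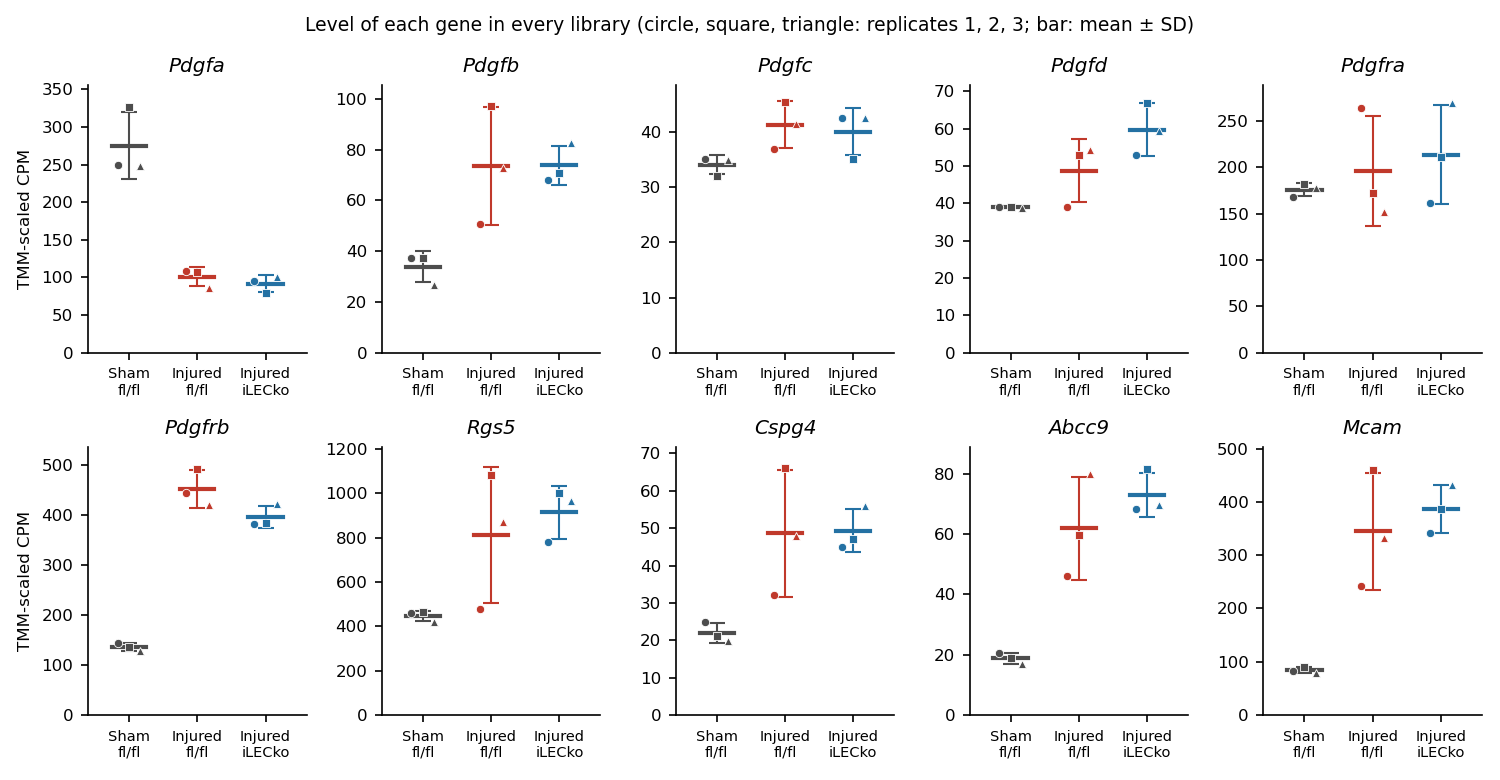
Level of each of the 10 genes in every library, in TMM-scaled CPM on an axis from 0, with points for replicates and bars for the mean and SD of 3 libraries per group. *Pdgfrb* and *Mcam* lie above every Sham library in all 6 injured libraries, *Pdgfa* lies below, and *Pdgfra* overlaps between all groups.

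Among the ligands, *Pdgfa* (NCBI Gene ID 18590), the ligand of PDGFRα, was at 249.6, 327 and 249 CPM in Sham replicates 1 to 3. It was at 109, 108 and 86.4 CPM in the injured VEGFR3fl/fl libraries. Every injured library lay below every Sham library, and the means were 275 ± 44.9 and 101 ± 12.7 CPM (SD, n = 3 each). The log2 fold change was -1.45 (standard error, SE, 0.15 and adjusted p = 3.2e-05 in edgeR).

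*Pdgfb* (NCBI Gene ID 18591), encoding the endothelial ligand of mural cells, was at 37.5, 37.3 and 26.8 CPM in Sham and at 50.7, 97.1 and 72.9 CPM in injured VEGFR3fl/fl libraries. The groups did not overlap, although injured replicate 1 lay nearer to Sham than the others did. This was a log2 fold change of 1.12 (SE 0.22, adjusted p = 0.00205 in edgeR). *Pdgfb* had 476 to 677 counts per Sham library and 835 to 1658 per injured library.

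The remaining ligands, which are secreted with a CUB domain that proteases must remove, differed less. *Pdgfc* (NCBI Gene ID 54635) was at 35.2, 32.1 and 35.0 CPM in Sham and at 37.0, 45.5 and 41.6 CPM after injury, without overlap. Its log2 fold change of 0.28 (adjusted p = 0.0428 in edgeR) was 1.21-fold and so did not reach the fold threshold. *Pdgfd* (NCBI Gene ID 71785) was at 39.0, 39.0 and 38.7 CPM in Sham and at 39.0, 52.9 and 54.2 CPM after injury, with replicate 1 at the Sham level. Its log2 fold change was 0.32 (adjusted p = 0.0559 in edgeR).

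Set on a scale per transcript length, the makeup of ligand RNA shifted from *Pdgfa* towards the others. As a share of the summed approximate TPM, a level corrected for transcript length, of the 4 ligands, computed from each gene's longest transcript, *Pdgfa* made up 79.7% ± 2.40 in Sham and 48.7% ± 7.08 after injury (SD, n = 3 each). The share of *Pdgfb* was 6.90% ± 1.12 in Sham and 24.3% ± 5.22 after injury. Within each library, the log2 ratio of *Pdgfa* to *Pdgfb* CPM was 2.73, 3.13 and 3.21 in Sham and 1.10, 0.15 and 0.25 after injury. With the median transcript length in place of the longest, *Pdgfa* went from 83.6% to 54.7% and *Pdgfb* from 6.16% to 23.3%.

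Of the receptors, *Pdgfrb* (NCBI Gene ID 18596) was at 145, 135 and 128 CPM in Sham and at 444, 492 and 419 CPM in injured VEGFR3fl/fl libraries. The lowest injured library was far above the highest Sham library. Its log2 fold change was 1.73 (SE 0.09, adjusted p = 6.41e-07 in edgeR), and it stayed between 1.67 and 1.79 whichever single library was omitted.

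*Pdgfra* (NCBI Gene ID 18595) was at 168, 182 and 178 CPM in Sham and at 264, 173 and 152 CPM in injured VEGFR3fl/fl libraries. Injured replicate 1 was the highest of these 6 libraries, and the other injured libraries lay within or below the Sham range. On the log2 scale the difference was 0.16 (95% interval -0.35 to 0.66, adjusted p = 0.567 in edgeR). It was -0.12 without injured replicate 1 and -0.027 with scaling by library size alone, so that no direction can be given.

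The log2 ratio of *Pdgfrb* to *Pdgfra* CPM within a library was -0.22, -0.43 and -0.47 in Sham and 0.75, 1.51 and 1.47 after injury. All injured ratios were above all Sham ratios, and the means differed by 1.62 on the log2 scale. An exact two-sided permutation test gave p = 0.1, the smallest that 3 libraries against 3 allow (0.2 after Benjamini-Hochberg adjustment over the 2 ratios tested). *Pdgfrb* made up 49.3% ± 2.37 of receptor TPM in Sham and 74.6% ± 5.77 after injury with the longest transcripts (SD, n = 3 each). With median transcript lengths the same shares were 18.2% and 40.7%, so which receptor was more abundant depended on the length used, and the rise of the *Pdgfrb* share did not.

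*Rgs5* (NCBI Gene ID 19737), a regulator of G protein signalling used as a pericyte marker, was at 459.6, 463 and 421 CPM in Sham and at 479.6, 1083 and 873 CPM in injured VEGFR3fl/fl libraries. Injured replicate 1 barely exceeded the highest Sham library, while replicates 2 and 3 were clearly above it. A log2 fold change of 0.86 resulted (SE 0.25, adjusted p = 0.0149 in edgeR). The adjusted p was 0.0517 without Sham replicate 3, and the log2 fold change was 1.12 without injured replicate 1 (range of adjusted p over all alternatives, 9.83e-05 to 0.0517).

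*Cspg4* (NCBI Gene ID 121021), encoding the NG2 proteoglycan of pericytes and glial progenitors, was at 25.0, 21.2 and 19.9 CPM in Sham and at 32.1, 66.0 and 47.8 CPM after injury. The groups did not overlap, and injured replicate 1 was again the lowest of its group. Its log2 fold change was 1.14 (SE 0.23, adjusted p = 0.00208 in edgeR).

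*Abcc9* (NCBI Gene ID 20928), encoding the sulfonylurea receptor subunit of the pericyte potassium channel, was at 20.5, 19.0 and 16.8 CPM in Sham and at 46.0, 59.8 and 79.9 CPM after injury. All injured libraries were more than 2-fold above the highest Sham library, with replicate 3 the highest. The log2 fold change was 1.72 (SE 0.19, adjusted p = 4.94e-05 in edgeR).

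*Mcam* (NCBI Gene ID 84004), encoding the adhesion molecule CD146 of pericytes and endothelium, was at 83.2, 90.7 and 79.3 CPM in Sham and at 242, 461 and 332 CPM after injury. It had the largest rise of the 10 genes, without overlap between the groups. Its log2 fold change was 2.03 (SE 0.21, adjusted p = 3.61e-05 in edgeR).

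Injured and Sham libraries did not overlap in 8 of the 10 genes, where 66.3% of all genes tested did not overlap. With each library left out in turn, 6 or 7 of the 10 genes were called, and 7 were called without injured replicate 1. Within the injured VEGFR3fl/fl group, replicate 1 was the lowest of the 3 libraries in 7 of the 10 genes (*Pdgfb*, *Pdgfc*, *Pdgfd*, *Rgs5*, *Cspg4*, *Abcc9* and *Mcam*) and the highest in *Pdgfa* and *Pdgfra*. Of all genes tested, 38.2% were lowest and 38.7% highest in that library.

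**Figure D2:**
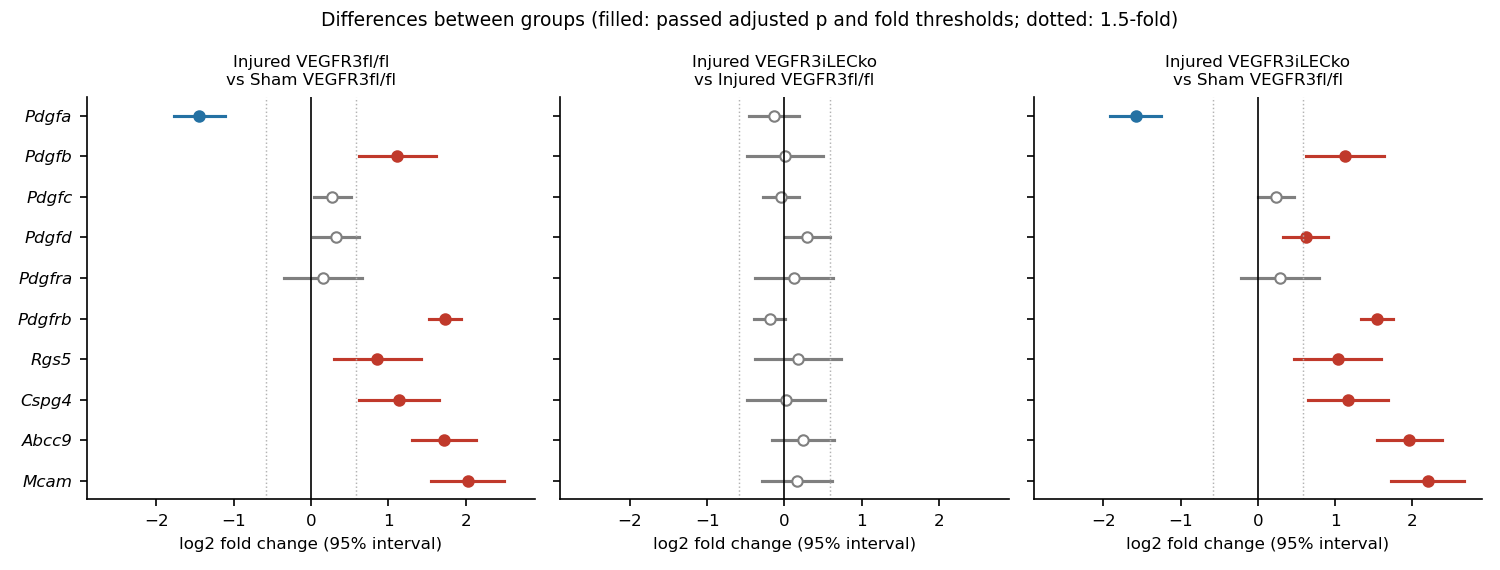
Log2 fold changes of the 10 genes with their 95% intervals in the 3 comparisons, where filled points passed both thresholds and dotted lines mark 1.5-fold. In the comparisons with Sham 7 and 8 genes passed, and between the injured groups 0 passed. Both comparisons with Sham share the Sham libraries.

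The promoters of 3 pericyte genes that rose are shown because these genes moved in one direction after injury. The windows come from RefSeq on GRCm38.p6, the assembly behind the mm10 build named in the submitters' processing notes, and start 250 bases before a transcript start. They end at that start or earlier, where a GENCODE exon begins. Each runs 5′ to 3′ on the strand of its gene, and capitals mark a GC box, GGGCGG on either strand. *Rgs5* lies on the plus strand (chr1:169655251-169655500, directly before the gene), *Cspg4* on the plus strand (chr9:56864854-56865032, before the gene) and *Abcc9* on the minus strand (chr6:142702316-142702524, between exons inside the annotated span of the gene).
Rgs5: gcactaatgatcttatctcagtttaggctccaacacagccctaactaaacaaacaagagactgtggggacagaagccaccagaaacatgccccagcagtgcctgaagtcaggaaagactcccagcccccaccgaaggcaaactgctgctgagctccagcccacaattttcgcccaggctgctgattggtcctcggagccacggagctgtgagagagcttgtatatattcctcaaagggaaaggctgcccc
Cspg4: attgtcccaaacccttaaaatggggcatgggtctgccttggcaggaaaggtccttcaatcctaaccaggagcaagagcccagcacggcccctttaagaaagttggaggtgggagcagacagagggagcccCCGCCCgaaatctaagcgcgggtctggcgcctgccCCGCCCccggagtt
Abcc9: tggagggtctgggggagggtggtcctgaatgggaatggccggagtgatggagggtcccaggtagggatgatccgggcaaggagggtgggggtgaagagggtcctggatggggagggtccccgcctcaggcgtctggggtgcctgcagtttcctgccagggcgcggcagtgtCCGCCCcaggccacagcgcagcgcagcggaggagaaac

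Windows were found for 8 of the 10 genes, and none was at hand for *Pdgfb* and *Pdgfrb*. That of the pericyte gene *Mcam* lies wholly within GENCODE exons and is not shown. In the full 250 bases, *Cspg4* held 2 GC boxes, *Abcc9* 1, *Mcam* 5 and *Rgs5* 0, and 32.7% of 32851 promoters of that length held at least 1. A CArG box, the sequence bound by serum response factor, occurred only in the window of *Pdgfc* among the 8 genes, and in 1.47% of all promoters. TATAAA occurred only in that of *Pdgfd* among the 8, and in 12.4% of all promoters. TGANTCA, the AP-1 site, was in none of the 8 and in 6.75% of all. Of the other motifs searched, on both strands, CANNTG was in the windows of *Pdgfra*, *Abcc9* and *Mcam* (66.2% of all promoters), and TGGGAA in those of *Pdgfa*, *Pdgfd* and *Abcc9* (21.6%). These letters describe the windows and say nothing of factor binding.

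Proteins that process, bind or relay PDGF were given by lists chosen with earlier results of these data known. Of 12 genes for PDGF processing and binding proteins, 8 were higher after injury (66.7%, against 22.1% of all genes tested). None was lower (against 17.5%), and the median log2 fold change was 0.86. *Hspg2*, encoding the basement membrane proteoglycan perlecan, rose from 212 ± 12.5 to 687 ± 39.9 CPM (SD, n = 3 each), a log2 fold change of 1.70 (adjusted p = 6.14e-07 in edgeR). *Pdgfrl*, encoding a receptor-like protein, was at 18.6 to 21.7 CPM in Sham and at 111, 32.1 and 40.4 CPM after injury, a log2 fold change of 1.57 (adjusted p = 0.00892 in edgeR), with injured replicate 1 the highest. Without that library the difference was 0.82 on the log2 scale and was still called. *Sparc*, whose product binds PDGF, rose by a log2 fold change of 1.21, and *Furin*, encoding a convertase that cleaves PDGF precursors, by 0.63, which was 0.51 and no longer called without injured replicate 3.

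Of 30 genes for proteins that relay PDGF receptor signals, 10 were higher (33.3%, against 22.1% of all genes tested), 2 lower (6.7%, against 17.5%) and 18 not called, and their median log2 fold change was 0.09. *Ptpn1*, a phosphatase that dephosphorylates receptor tyrosine kinases, rose from 56.0 ± 1.35 to 199 ± 12.4 CPM (SD, n = 3 each), a log2 fold change of 1.83 (adjusted p = 1.84e-07 in edgeR). *Slc9a3r1*, a scaffold protein gene, rose by a log2 fold change of 1.43. The adaptor gene *Nck2* fell by 0.75 on the log2 scale, and *Grb7*, another adaptor gene, had 14 to 17 counts per Sham library and 3 to 6 after injury. With scaling by library size alone, 6 of these 30 genes were higher and 4 lower.

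Of 18 further mural cell genes, 5 were higher (27.8%), 3 lower (16.7%) and 10 not called, shares near those of all genes tested (22.1% and 17.5%), and their median log2 fold change was 0.37. *Aspn*, encoding the small proteoglycan asporin, rose from 14.8 ± 1.02 to 123 ± 38.5 CPM, and *Anpep*, encoding aminopeptidase N, from 51.6 ± 3.73 to 318 ± 103 CPM (SD, n = 3 each), both highest in injured replicate 1. Their log2 fold changes were 3.05 and 2.63 (adjusted p = 5.23e-06 and 7.76e-06 in edgeR). Both are also expressed outside mural cells. *Kcnj8*, encoding the pore subunit that pairs with the product of *Abcc9*, rose from 16.9 ± 2.01 to 26.9 ± 2.58 CPM, a log2 fold change of 0.67 that was 0.58 and just under the fold threshold without Sham replicate 1.

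*Vtn*, encoding vitronectin, was at 78.4, 38.8 and 67.9 CPM in Sham and at 18.1, 31.3 and 7.58 CPM after injury, a log2 fold change of -1.70 (adjusted p = 0.0365 in edgeR). The call for *Vtn* was lost in 5 of the 9 fits that omitted a library (adjusted p up to 0.103 in edgeR, without Sham replicates 1 or 3, injured VEGFR3fl/fl replicates 1 or 3, or injured VEGFR3iLECko replicate 2). *Atp13a5*, a brain pericyte marker, had 40 counts over the Sham libraries and 6 over the injured ones, a ratio of 6.35 lower after injury with a counting interval of 2.68 to 18.3. *Notch3*, the Notch receptor of mural cells, was at 70.0, 56.9 and 55.8 CPM in Sham and at 56.8, 101 and 95.9 CPM after injury, and was not called (log2 fold change 0.47). *Kcnj8* and *Notch3* were chosen for mention after their values were seen, as were *Sparc* and *Furin*. With each library left out in turn, 4 to 7 of the 18 were higher and 1 to 3 lower, with 1 lower without Sham replicate 3 and 1 lower without injured replicate 3.

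**Figure D3:**
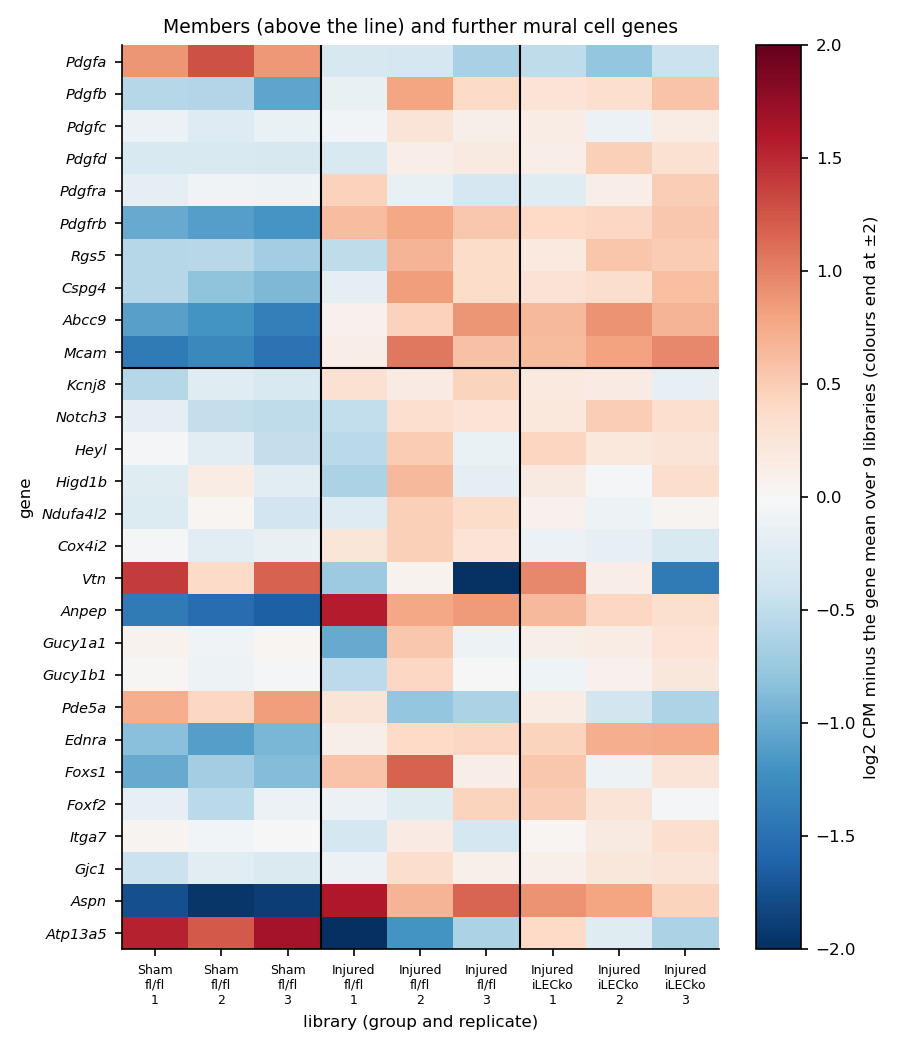
Log2 CPM of the 10 genes and of 18 further mural cell genes in each library, as the difference from the gene's mean over 9 libraries, with colours ending at 2 in either direction. *Pdgfrb*, *Abcc9*, *Mcam*, *Anpep* and *Aspn* are low in Sham and high in injured libraries, while *Pdgfa* and *Atp13a5* are lower in the injured VEGFR3fl/fl than in the Sham libraries.

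RNA of other cell types also changed after injury, in a direction that differed between lists. Beside the counts of these lists stand the shares of all genes tested, 22.1% called higher and 17.5% lower. Of 12 smooth muscle genes, 0 were higher and 10 lower after injury, and their summed level was 9583 to 11993 CPM in Sham and 2089 to 3937 CPM in injured VEGFR3fl/fl libraries. *Myh11*, encoding the smooth muscle myosin heavy chain, fell by 3.34 on the log2 scale (adjusted p = 1.58e-06 in edgeR). Whole-iris RNA does not tell the smooth muscle of vessels from that of the iris muscles, so these falls cannot be assigned to either. Of 12 fibroblast genes, 11 were higher and 0 lower, with summed levels of 4300 to 4882 CPM in Sham and 18281 to 26054 CPM after injury. Of 12 blood endothelial genes, 9 were higher and 1 lower, with summed levels of 755 to 799 CPM in Sham and 1985 to 2064 CPM after injury.

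Among the other lists, 11 of 12 macrophage genes were higher and 0 lower. Their summed level was 522 to 544 CPM in Sham and 12888 to 21356 CPM after injury. Of 8 melanocyte genes 7 were lower and 0 higher, and of 6 Schwann cell and oligodendrocyte lineage genes tested 4 were lower and 1 higher. Of 6 lymphatic endothelial genes 1 was higher and 1 lower, and of 2 ciliary body genes 0 were called, at a summed 1.80 to 2.49 CPM in Sham and 1.44 to 3.64 CPM after injury. The part of these changes in the values of the 10 genes was not tested.

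**Figure D4:**
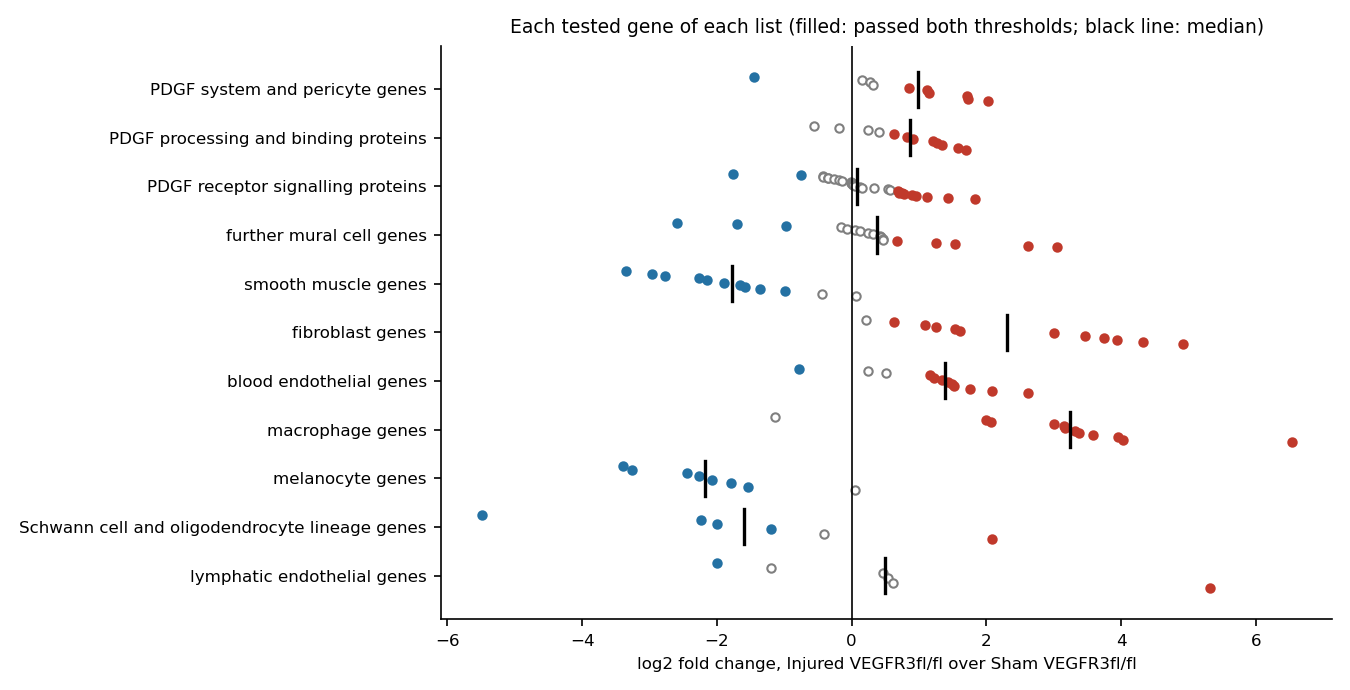
Log2 fold change of each tested gene of 11 lists, injured VEGFR3fl/fl over Sham VEGFR3fl/fl, with filled points for genes that passed both thresholds and a black line for the list's median. The PDGF and pericyte genes lie mostly to the right, and the smooth muscle genes lie mostly to the left.

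Since endothelial RNA rose as well, the mural cell genes were set against endothelial genes within each library, a choice made after the data were seen. The mean log2 CPM of the 12 blood endothelial genes rose by 1.20. Relative to it, *Pdgfrb* was higher by 0.53 after injury, *Mcam* by 0.78 and *Abcc9* by 0.48, whereas the differences were -0.12 for *Cspg4*, -0.12 for *Pdgfb* and -0.43 for *Rgs5*. For *Abcc9*, *Cspg4*, *Pdgfb* and *Rgs5* the groups overlapped. In *Cspg4*, *Pdgfb* and *Rgs5*, injured VEGFR3fl/fl replicate 1 was the lowest library of its group and replicate 2 lay above every Sham library. The injured VEGFR3iLECko means of these ratios were -1.39, -0.81 and 2.82, against -1.47, -0.86 and 2.89 in Sham. Relative to *Cdh5*, encoding VE-cadherin, the differences were -0.32 for *Pdgfrb*, -0.07 for *Mcam* and -1.27 for *Rgs5*. Relative to *Pecam1*, encoding CD31, they were -0.88, -0.63 and -1.84. The sign for *Pdgfrb*, *Mcam* and *Abcc9* therefore depended on the endothelial measure. In injured VEGFR3fl/fl, that for *Rgs5*, *Cspg4* and *Pdgfb* was negative with all 3, but these measures are not independent. *Pecam1* and *Cdh5* belong to the 12 genes and had their largest called rises, which lowers any ratio to them. Their log2 fold changes were 2.61 and 2.08, against a median of 1.39 for the list. These ratios were not tested.

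**Figure D5:**
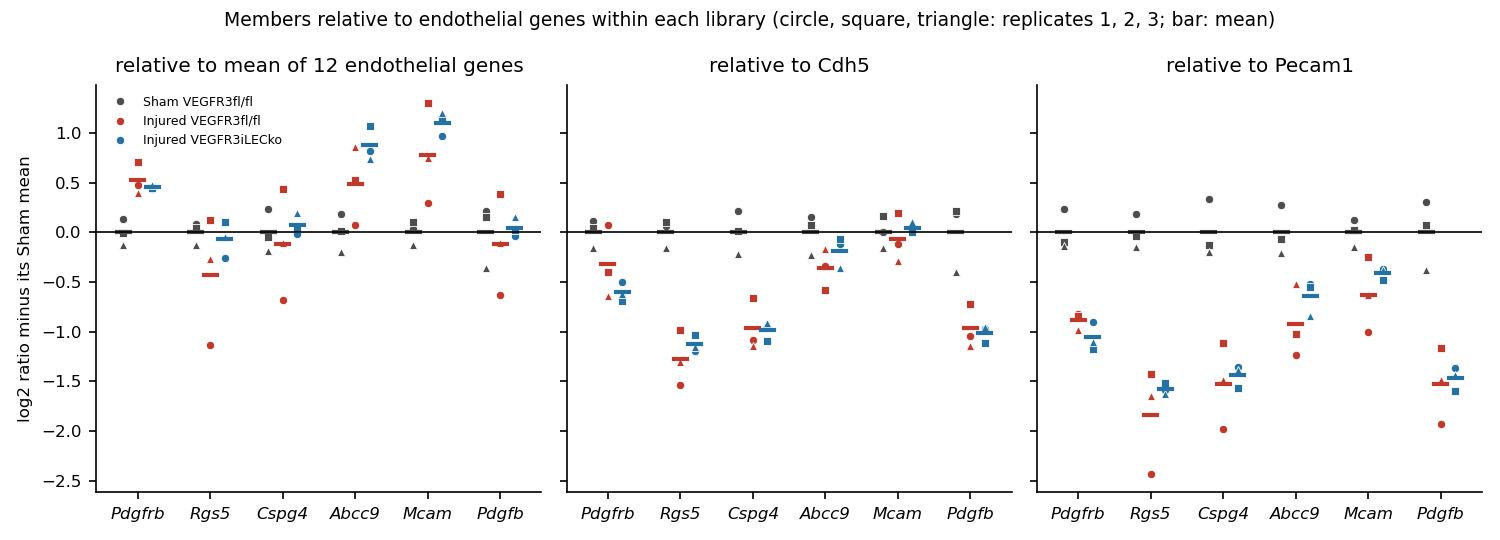
Log2 ratio of 6 genes to endothelial genes within each library, as the difference from the Sham mean, with points for replicates and bars for group means. *Rgs5* lies lower after injury relative to *Cdh5* and *Pecam1* in all 6 injured libraries, and *Pdgfrb* lies higher relative to the mean of 12 endothelial genes.

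Between the libraries labelled injured VEGFR3iLECko and injured VEGFR3fl/fl, which differed in Y-linked RNA and in which *Flt4* was not lower in the former, none of the 10 genes was called by edgeR (0 of 10, where 1.04% of all genes tested were called). At an unadjusted p under 0.05, which 24.5% of all genes tested had in edgeR, there was 1 by edgeR and 2 by DESeq2 in fits of all 9 libraries, and 0 by either tool in fits of the 6 injured libraries. Neither edgeR nor DESeq2 gave an adjusted p under 0.05 for any of the 10 in these fits, and 1.56% of all genes tested had one in edgeR. The groups overlapped in all 10 genes, where 26.7% of all genes tested did not overlap. The median difference on the log2 scale was 0.07, against -0.01 for all genes tested. For *Pdgfa*, *Pdgfb*, *Pdgfc*, *Pdgfrb* and *Cspg4* the 95% interval of the difference lay within 1.5-fold in both directions, and for the other 5 it reached further.

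*Pdgfrb* was at 382, 385 and 421 CPM in injured VEGFR3iLECko libraries, and 2 of the 3 lay below every injured VEGFR3fl/fl library. The log2 fold change was -0.19 (95% interval -0.39 to 0.0068, adjusted p = 0.216 in edgeR). Injured VEGFR3fl/fl replicate 3, the one without Y-linked RNA, was at 419 CPM and so inside the range of the injured VEGFR3iLECko libraries. With the Y-linked level as a covariate the difference was -0.11. That library is the only one of its group without Y-linked RNA. The part of Y-linked RNA in the difference cannot be told apart from genotype and was not tested.

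*Pdgfd* was at 52.9, 66.9 and 59.3 CPM in injured VEGFR3iLECko libraries, of which 2 lay above every injured VEGFR3fl/fl library. The log2 fold change was 0.29 (unadjusted p = 0.0485 and adjusted p = 0.202 in edgeR). *Pdgfb* was at 67.8, 70.8 and 82.6 CPM, inside the range of injured VEGFR3fl/fl, with a log2 fold change of 0.0038 (95% interval -0.49 to 0.50). *Pdgfa* was at 95.6, 79.2 and 101 CPM, with a log2 fold change of -0.14.

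*Rgs5* was at 779, 1002 and 964 CPM in injured VEGFR3iLECko libraries, a log2 fold change of 0.17 (95% interval -0.39 to 0.73) that was -0.092 without injured VEGFR3fl/fl replicate 1. *Abcc9* was at 68.3, 81.5 and 69.5 CPM (log2 fold change 0.24, -0.14 with the Y-linked covariate). *Mcam* was at 342, 387 and 432 CPM (0.16, and -0.032 without injured VEGFR3fl/fl replicate 1), and *Cspg4* at 45.0, 47.2 and 55.8 CPM (0.020, and -0.20 without that library). The spread between injured VEGFR3iLECko libraries was smaller than between injured VEGFR3fl/fl libraries in these 4 genes, as for *Rgs5* with an SD of 119 against 306 CPM. *Pdgfra* was at 162, 211 and 269 CPM and *Pdgfc* at 42.5, 35.2 and 42.5 CPM, both overlapping with the other injured group. The log2 ratio of *Pdgfrb* to *Pdgfra* was lower by 0.33 on average, at 1.24, 0.87 and 0.65 (exact two-sided permutation test, p = 0.3).

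Between the injured groups, edgeR called 0.6% of all genes tested higher and 0.5% lower. It called 0 of 12 processing and binding, 0 of 30 signalling and 0 of 18 further mural cell genes. In these lists 2, 9 and 5 genes had an unadjusted p under 0.05 in edgeR, which 24.5% of all genes tested had. DESeq2 on 9 libraries called 1, 0 and 1. Neither tool called a gene of the smooth muscle, fibroblast, blood endothelial, melanocyte, Schwann cell or ciliary body lists, in which 1, 3, 4, 2, 0 and 0 genes had an unadjusted p under 0.05 in edgeR. Of 6 lymphatic endothelial genes, edgeR called 1, *Reln*, higher, a call lost when any of 6 libraries was left out, and DESeq2 on 9 libraries called 2, *Reln* higher and *Ccl21a* lower. *Ccl21a*, encoding a chemokine of lymphatic endothelium, had 1522, 79 and 0 counts in the injured VEGFR3fl/fl libraries and 2, 3 and 6 in the injured VEGFR3iLECko libraries, so that the groups overlapped, and it has near-identical copies between which reads cannot be told apart (adjusted p = 0.0877 in edgeR). Of the 12 macrophage genes, 6 (*Adgre1*, *C1qa*, *C1qb*, *C1qc*, *Fcgr1* and *Aif1*) were lower, with 0 to 6 lower when each library was left out (0 without injured VEGFR3iLECko replicate 2), 1 with the Y-linked covariate, 2 with the replicate block, 8 in DESeq2 and 0 in edgeR on the 6 injured libraries.

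Against Sham, the injured VEGFR3iLECko libraries share the Sham samples with the first comparison, so the values are set side by side only. Here 7 of the 10 genes were higher and 1 lower, where 19.7% of all genes tested were higher, 15.0% lower and 34.8% either. *Mcam* was 4.58-fold higher, and the log2 fold changes were 1.96 for *Abcc9*, 1.54 for *Pdgfrb*, 1.16 for *Cspg4*, 1.12 for *Pdgfb*, 1.03 for *Rgs5* and -1.58 for *Pdgfa*. *Pdgfd* was called here, with a log2 fold change of 0.62 (adjusted p = 0.00317 in edgeR), and lost the call without injured VEGFR3iLECko replicate 2 (log2 fold change 0.53) and with scaling by library size alone (0.51). With the Y-linked level as a covariate, 4 of the 10 were called (*Pdgfa*, *Pdgfrb*, *Abcc9* and *Mcam*). That level was 51.1 to 167 CPM in Sham and 0.74 to 1.11 CPM in injured VEGFR3iLECko. The covariate and group therefore cannot be told apart in this comparison. The groups overlapped in *Pdgfc* and *Pdgfra* only, and so did not overlap in 8 genes, against 66.5% of all genes tested.

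The genes most like *Pdgfrb* over the 9 libraries were *Edem1*, *Ubtd1*, *Tmem131l*, *Gimap5* and *Ssh2*, with root mean square differences of centred log2 CPM of 0.11 to 0.12 among 13934 genes ranked. Those most like *Rgs5* were *Unc5b*, *AU021092*, *Gm39701*, *Ddah1* and *Prnp*, with differences of 0.11 to 0.16. Of the other 9 genes described here, *Abcc9* was nearest to *Pdgfrb* (0.31) and *Cspg4* nearest to *Rgs5* (0.18), followed by *Pdgfb* (0.20). The farthest from either was *Pdgfa* (1.49 and 1.20).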

How the data were processed

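Iris RNA of 9 libraries was analysed. The authors aligned filtered single-end reads of 50 bases with HISAT2 2.0.4 and Bowtie2 2.2.5 to the mouse genome (mm10 in the submitters' processing notes) and deposited estimated counts per gene without normalization. Between 9.83% and 10.3% of a library's values were not whole, and the program that estimated them is not given in the sources used here. A combined table with group averages was not used. Groups came from the titles. The genotype tags of 2 injured VEGFR3iLECko libraries named another VEGFR number and were not followed.

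Estimated counts were rounded, filtered with filterByExpr and normalized by TMM (factors 0.90 to 1.09), and all 9 libraries were fitted with group as the only term by edgeR 4.0.16 in R 4.3.3. P-values came from the quasi-likelihood test, adjusted by Benjamini-Hochberg over 15010 genes. Approximate TPM used GENCODE M21 transcript lengths, which 97.6% of genes had. DESeq2 1.42.0 served for alternatives, which also covered normalization, filters, thresholds, a Y-linked covariate, the replicate number as a block and the omission of each library. The alternatives for the gene lists and the choice of endothelial reference were added after the data were seen. The procedure was tested on simulated data. Libraries of a group differed by more than counting noise (chi-square over degrees of freedom, 5.21 to 78.2). Each library is a pool of 3 irises, so p-values measure the spread between pools. Counting intervals cover counting error only.

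The 10 genes and all lists were chosen with earlier results of these data known. Named were the 10 genes, the 2 largest rises and falls called in a list, genes called between the injured groups, and the 5 genes most like *Pdgfrb* and *Rgs5* that are in no list. For lists of other cell types, some of these names are not given. The position and promoter of *Pdgfrb* are not reported here.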

Additional observations from a re-analysis of the deposited data

How the results depend on the processing

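With each library left out, 6 to 7 of the 10 genes were called between injured VEGFR3fl/fl and Sham, 0 in every case between the injured groups and 7 to 8 between injured VEGFR3iLECko and Sham. The log2 ratio of *Pdgfrb* to *Pdgfra* then differed by 1.48 to 1.86 after injury and by -0.57 to -0.19 between the injured groups. With the Y-linked covariate, 4 genes were called between injured VEGFR3iLECko and Sham, of which 3 were higher, against 8 and 7 without it. *Pdgfb* (adjusted p = 0.0699), *Pdgfd* (0.176), *Rgs5* (0.168) and *Cspg4* (0.0603) lost the call there by edgeR. Their log2 fold changes were 1.06, 0.40, 0.86 and 1.14, and the cause was not tested. The standard errors were 0.39, 0.21, 0.43 and 0.40 with the covariate, against 0.22, 0.13, 0.25 and 0.23 without it. Y-linked RNA differed completely between these groups, so the covariate and group cannot be told apart.

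Signs turned where differences were small. For injury these were *Pdgfra* with library size only (-0.027) and without injured replicate 1. Between the injured groups they were, with the Y-linked covariate, *Pdgfa* (0.071), *Pdgfb* (-0.041) and *Abcc9* (-0.14), with the upper quartile *Pdgfb* (-0.010), and with library size only *Pdgfc* (0.012). With single libraries left out, values of the injured groups ran from -0.20 to 0.25 for *Pdgfb*, -0.12 to 0.040 for *Pdgfc*, -0.073 to 0.40 for *Pdgfra*, -0.20 to 0.30 for *Cspg4*, -0.092 to 0.44 for *Rgs5* and -0.032 to 0.43 for *Mcam*, and from -0.12 to 0.31 for *Pdgfra* after injury. Library size alone moved the median of all genes to -0.16 (log2) after injury and the share of higher calls from 55.8% to 44.1%.

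Same-numbered libraries correlated in their deviations by -0.39 to 0.13, and differently numbered libraries by -0.24 to 0.32. No pairing by number showed, although 3 libraries per group cannot exclude one. The replicate block gave 7, 0 and 8 called genes in the 3 comparisons, as without it. The ratio of receptors had p = 0.25 after injury and p = 0.5 between the injured groups with exact sign permutation of the pairs. The smallest p that 3 pairs allow in that test is 0.25. These pairs follow the replicate number, so no conclusion is drawn from them. Pools of 3 irises and 3 libraries per group limit the precision more than counts do.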
